A study of Drosophila melanogaster with 12 samples.

Results

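The calcium and calcineurin genes of egg activation were taken as 4 genes, the IP3 receptor Itp-r83A, the calcineurin regulator sra, the calcineurin regulatory subunit CanB2 and the calcineurin catalytic subunit CanA-14F. Each was picked by its gene name in the deposited table, and all 4 were present among 5421 distinct transcript records, with 1 record per gene. Total RNA of Drosophila melanogaster oocytes and eggs had been sequenced in 12 libraries, which form 6 groups of 2. The mutant groups carried wispKG5287, labelled a wispy knockout and a null allele, in the gene wisp, which encodes a poly(A) polymerase that lengthens mRNA tails in the cytoplasm. The wild type (WT) groups were w1118.

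For each genotype there were immature oocytes of oogenesis stages 9 to 10, mature oocytes of stage 14 and activated eggs aged 0 to 1 h. Oocytes were dissected by hand from females aged 3 or 4 days. The w1118 eggs were unfertilised, from virgin females that had been mated to sterile males born to tud1 mothers. The labels describe no separate mating for the wisp eggs. The labels call the replicates biological and do not say whether they came from separate flies, so p-values measure the spread between these libraries.

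In the mature insect oocyte, meiosis is arrested until the egg passes down the oviduct, when calcium rises in a wave across the egg. The IP3 receptor is a calcium channel of the endoplasmic reticulum that carries such waves. Calcium, through calmodulin, switches on calcineurin, a phosphatase made of a catalytic A subunit and a regulatory B subunit. In Drosophila eggs calcineurin and its regulator Sarah (sra), which is phosphorylated by the GSK-3 kinase encoded by sgg, are needed for the completion of meiosis at egg activation.

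All values are normalised read counts as the authors deposited them, by a method of normalisation not stated in the labels. Library sums ranged from 11081267 to 14089899, and the depth of sequencing behind them is unknown. The lowest value in the table was 100.07, so a gene appears in it only if it reached 100 in every library. The wisp gene checked the genotype labels. Its normalised read counts in mutant libraries ranged from 189 to 718, against 3623 to 17226 in WT libraries. Of the marker lists used to check the tissue, 15 of 15 germline genes were present, and 0 of 22 follicle cell, 0 of 10 ovarian muscle and 0 of 5 haemocyte markers were listed. Since a listed gene had to reach 100 in every library, eggs included, absent markers do not show that the oocyte samples lacked those cells. The summed germline marker level was 72339 to 85063 in wisp libraries and 56899 to 75788 in WT libraries. Replicates lay closest in mature oocytes, where 7 wisp and 9 WT records differed by at least 2-fold between the replicates. In immature oocytes the counts were 931 in wisp and 1117 in WT, and in activated eggs 618 in wisp and 472 in WT.

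The 4 genes fall into a long and a middle class by transcript length. Itp-r83A (FBgn0010051, current symbol Itpr) lies on chromosome 3R from 5517117 to 5539411 on the plus strand of dm6, and its longest annotated transcript has 19 exons and 10304 nt, of which 8484 nt are coding sequence. CanA-14F (FBgn0267912) lies on chromosome X from 16560684 to 16587172 on the minus strand, with a longest transcript of 7965 nt and 1752 nt of coding sequence. The sra gene (FBgn0086370) lies on chromosome 3R from 16186999 to 16197584 on the plus strand. Its longest transcript has 2071 nt and 876 nt of coding sequence. CanB2 (FBgn0015614) lies on chromosome 2R from 7786010 to 7789053 on the plus strand, with a longest transcript of 2061 nt and 510 nt of coding sequence. Transcripts of Itp-r83A and CanA-14F are thus among the longest measured, longer than 98.6% and 96.6% of records, while sra and CanB2 lie near the middle of the records and within 10 nt of each other in length.

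**Figure D1:**
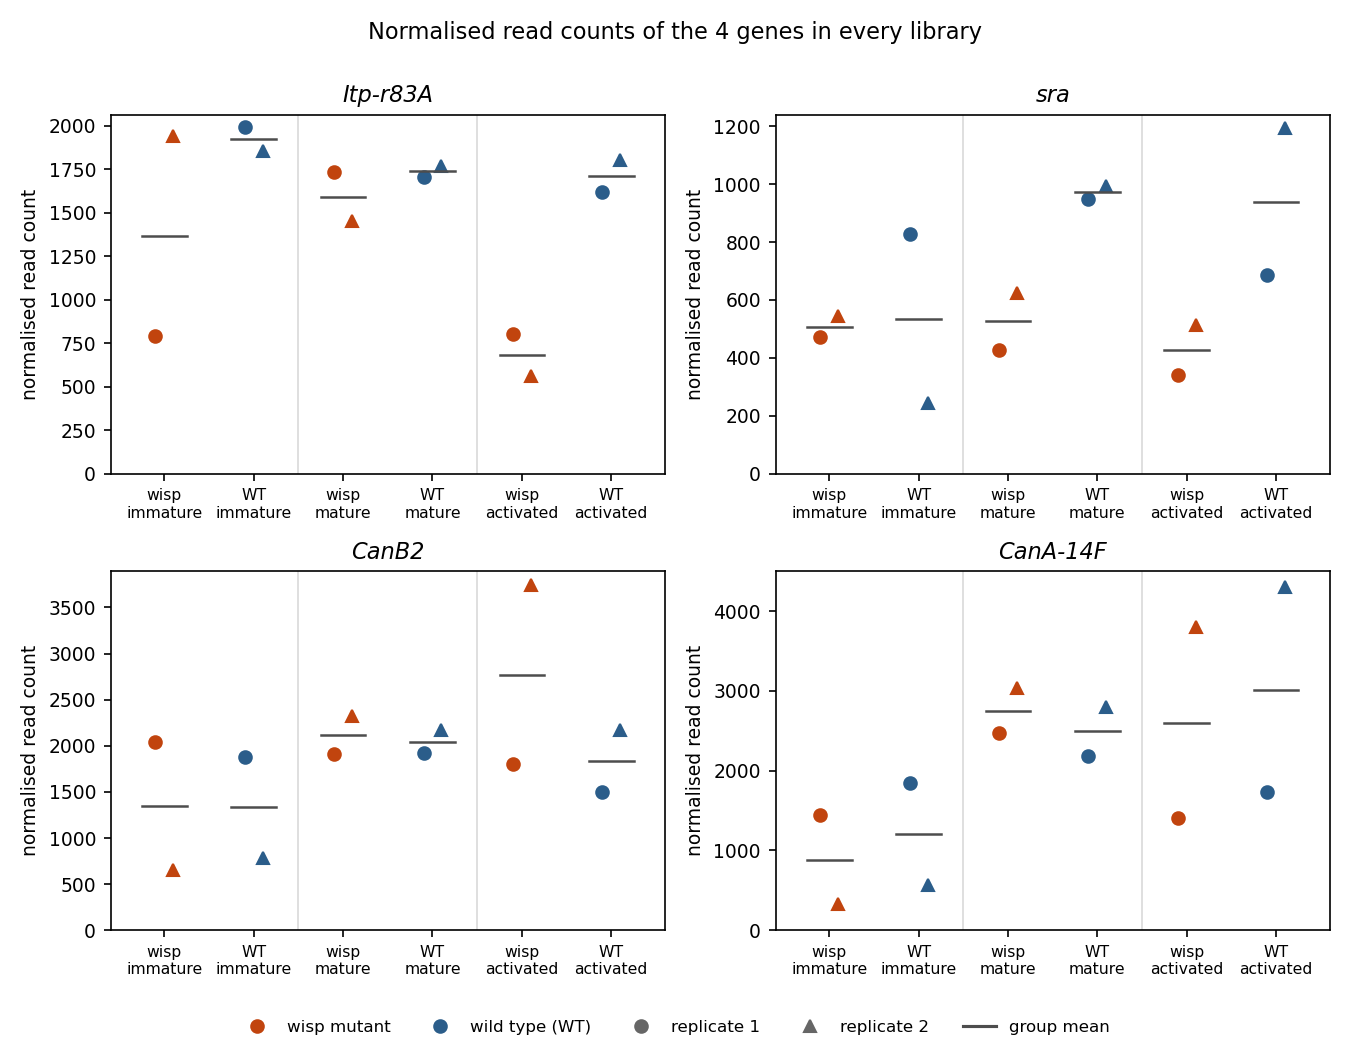
Normalised read counts (vertical axis, from 0) of the 4 genes in each of the 12 libraries, by stage and genotype, with wisp libraries left of WT at each stage, replicate 1 as circles, replicate 2 as triangles and the group mean as a line. In activated eggs the 2 wisp libraries lie below the 2 WT libraries for Itp-r83A and sra, while for CanB2 and CanA-14F the ranges of the genotypes overlap.

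Itp-r83A, the channel that releases calcium from the endoplasmic reticulum, was lower in activated eggs of the mutant. In wisp activated eggs its normalised read counts were 803 and 558.5 (681 ± 173, SD, n = 2), against 1618 and 1799.6 in WT activated eggs (1709 ± 128, SD, n = 2). The groups did not overlap, with both wisp libraries below both WT libraries. The log2 fold change on the log2(value + 1) scale was -1.35 with a 95% interval of -2.20 to -0.49, a fall by 2.55-fold (limma, Benjamini-Hochberg adjusted p = 0.0331). It was the 1 member of 4 called lower in activated eggs, where 17.7% of all records were called lower, 7.3% higher and 25% in either direction, so a count of 1 among 4 is near the background. Groups that did not overlap with wisp lower were found for 2 of the 4 genes, against 38.9% of all records. These are bulk values, so differences between single eggs cannot be seen in them.

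In mature oocytes the receptor's values were close in the genotypes. They were 1735 and 1450.1 in wisp, against 1707 and 1769.5 in WT, and the ranges overlapped. The log2 fold change was -0.13 with an interval of -0.99 to 0.72 (limma, adjusted p = 0.955). In immature oocytes the wisp libraries were far apart, at 793 and 1942, against 1992 and 1855.5 in WT. One wisp library lay within the WT range and the other below it, and the log2 fold change was -0.63 with an interval of -1.49 to 0.22 (limma, adjusted p = 0.804).

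Ordered by mean, Itp-r83A was highest in WT immature oocytes (1924), followed by WT mature oocytes (1738), WT activated eggs (1709), wisp mature oocytes (1592), wisp immature oocytes (1367.5) and wisp activated eggs (681). Only the step between WT immature and WT mature oocytes separated neighbours whose ranges did not overlap. From mature oocyte to activated egg the log2 fold change was -1.24 in wisp, interval -2.10 to -0.39 (limma, unadjusted p = 0.00981, adjusted p = 0.764), and -0.03 in WT, interval -0.88 to 0.83 (limma, adjusted p = 0.9998). The difference between those changes was -1.22 with an interval of -2.43 to -0.01 (limma, unadjusted p = 0.0491, adjusted p = 0.561), so it did not pass the threshold over all records. Of the 4 genes 0 were called in the change at activation in wisp, in WT or in the difference, where 0.0184%, 0.0553% and 0% of all records were called by limma. At an unadjusted p under 0.05 the counts of members were 1, 0 and 1, against 5.53%, 3.04% and 8.19% of all records, and each of those was Itp-r83A.

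Over all records the genotype difference in activated eggs varied with transcript length, and the transcript of Itp-r83A is among the longest. Among the 676 records of the longest of 8 length bins (5090 to 27842 nt), the median log2 difference between wisp and WT activated eggs was -0.74 and 27.7% were called lower, against a median of 0.48 and 5.77% called lower in the shortest bin (30 to 1054 nt). With each library corrected for its trend with length, the log2 fold change of Itp-r83A in activated eggs was -0.66 (limma, adjusted p = 0.268), so the call ended and the size was less. In mature oocytes the longest bin had a median of -0.01, beside the receptor's difference of -0.13, and in immature oocytes a median of -0.33, beside -0.63. What part length has in the difference of Itp-r83A was not tested.

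**Figure D2:**
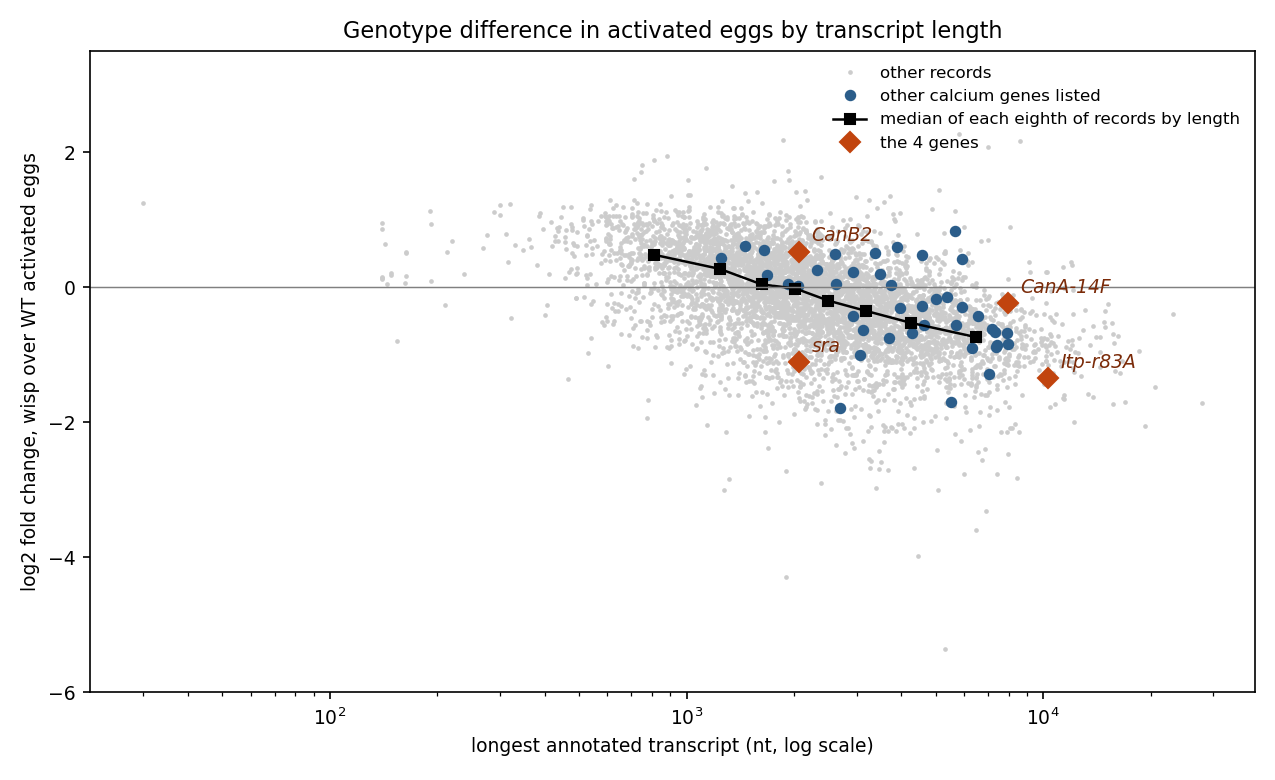
Log2 fold change of wisp over WT activated eggs (vertical axis) against the length of the longest annotated transcript (horizontal axis, nt, log scale), with a point per record, the 4 genes as diamonds, 40 other calcium genes as filled circles and the median of each of 8 length bins as squares. The medians run from 0.48 in the shortest bin to -0.74 in the longest. Itp-r83A at -1.35 and CanA-14F at -0.24 lie on opposite sides of the median of the longest bin, and sra at -1.11 and CanB2 at 0.52 on opposite sides of the median of their bin, -0.02.

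The genes whose log2 values followed Itp-r83A most closely over the 12 libraries, leaving out genes known only by an annotation number, were shot (Pearson's r = 0.985), nocte (0.966) and Patronin (0.960). Their longest transcripts have 27842, 9940 and 6782 nt, so all 3 fall in the longest length bin too. In all, 45 records had an r over 0.9 with it. These correlations share the same libraries and their scaling, and carry no p-value.

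The regulator sra, homologous to the vertebrate RCAN calcineurin regulators, was below the WT level in mutant mature oocytes and eggs. It did not pass the threshold in the main fit of all 12 libraries, which has no term for replicate number. With such a term within each stage it was called in mature oocytes and in activated eggs (limma, adjusted p = 0.022 and 0.00281). There 24% and 53.7% of all records were called, and the labels do not say that replicate numbers mark a batch. In wisp mature oocytes its normalised read counts were 427 and 624 (526 ± 139, SD, n = 2), against 950.2 and 995 in WT mature oocytes (972 ± 31.4, SD, n = 2). In wisp activated eggs they were 339 and 515, against 685 and 1194 in WT activated eggs. At both stages the higher wisp library lay below the lower WT library. In immature oocytes the wisp values of 471 and 545 lay between the 2 WT values of 827 and 244.

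The log2 fold change of sra was -0.91 in mature oocytes with an interval of -2.12 to 0.29 (limma, adjusted p = 0.386). In activated eggs it was -1.11 with an interval of -2.32 to 0.09 (limma, adjusted p = 0.158), and in immature oocytes 0.17 with an interval of -1.03 to 1.38 (limma, adjusted p = 0.9997). The spread used in these tests is pooled over the 6 groups, and for sra the WT immature libraries, with a SD of 413 around a mean of 535.5, were the farthest apart. In a fit of the 4 mature libraries alone the adjusted p in mature oocytes was 0.00258 (limma), where 41.95% of all records were called, and without the 4 immature libraries that in activated eggs was 0.0318 (limma), where 33% of all records were called, at the same log2 fold changes. Without the immature libraries that in mature oocytes was 0.12, and with only the activated libraries that in activated eggs was 0.0828 (limma), so neither call holds in both smaller fits. Of the 4 genes 0 were called in mature oocytes by limma in the main fit of all libraries, where 10.1% of all records were called (9.37% lower and 0.683% higher), and 0 had an unadjusted p under 0.05. The group ranges of 1 member, sra, did not overlap with wisp lower, as did those of 39.9% of all records.

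By transcript length sra lies near the middle of the records. The 676 records of its length bin (1815 to 2237 nt) had a median log2 difference of -0.02 in activated eggs and -0.05 in mature oocytes, and with the length trend removed sra had -1.18 in activated eggs and -0.83 in mature oocytes. Another gene overlaps it. The exons of Bin1, on the opposite strand, share 301 bp with those of sra, and without strand information reads of the shared stretch cannot be assigned to one of them. Bin1, singled out for this overlap, had normalised read counts of 421 and 504 in wisp mature oocytes, against 596 and 595 in WT mature oocytes. In activated eggs it had 489.6 and 596 in wisp, against 518 and 517 in WT. The log2 fold change of Bin1 was -0.37 in mature oocytes, where its groups did not overlap either (limma, adjusted p = 0.276). In activated eggs it was 0.06 (limma, adjusted p = 0.846). What part shared reads have in the values of sra was not tested.

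Ordered by mean, sra was highest in WT mature oocytes (972) and WT activated eggs (939), followed by WT immature oocytes (535.5), wisp mature oocytes (526), wisp immature oocytes (508) and wisp activated eggs (427), and the ranges of all neighbours in that order overlapped. The genes most like sra over the 12 libraries were Larp7 (r = 0.913), bon (0.908) and Vps45 (0.901), and 11 records had an r over 0.9 with it. Their longest transcripts have 2049, 5811 and 2055 nt, so Larp7 and Vps45 fall in the length bin of sra and bon in the longest bin.

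CanB2, the regulatory subunit, which binds calcium, had normalised read counts of 1914 and 2322 in wisp mature oocytes, against 1919 and 2171 in WT mature oocytes. The genotypes overlapped there and differed by 0.05 on the log2 scale, with an interval of -1.33 to 1.42 (limma, adjusted p = 0.988). In wisp activated eggs it had 1799 and 3738, against 1498 and 2168 in WT activated eggs. One wisp library was above both WT libraries and the other between them. The log2 fold change was 0.52 with an interval of -0.85 to 1.90 (limma, adjusted p = 0.58). Without wisp activated replicate 2 it was -0.0026 and without wisp activated replicate 1 it was 1.05, so its size depended on which wisp library was kept. Between same-numbered libraries the log2 differences were 0.26 and 0.79. In immature oocytes CanB2 had 2039 and 654 in wisp, against 1874.5 and 788 in WT, with a log2 fold change of -0.07 and an interval of -1.45 to 1.30 (limma, adjusted p = 0.9997). Its mean was highest in wisp activated eggs (2768.5) and lowest in WT immature oocytes (1331), and the ranges of all neighbours in the order overlapped.

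CanA-14F, a catalytic subunit, had the widest spread of the 4 genes. In wisp activated eggs its normalised read counts were 1402 and 3801, against 1729 and 4302 in WT activated eggs, and in each genotype the replicate 2 library was the higher. In immature oocytes it had 1439.8 and 331 in wisp, against 1841 and 563 in WT, and there replicate 1 was the higher in each genotype. In mature oocytes it had 2468 and 3038 in wisp, against 2189.6 and 2799.9 in WT, and the replicates lay closer together than at the other stages. The log2 fold changes between genotypes were -0.56 in immature oocytes, 0.15 in mature oocytes and -0.24 in activated eggs (limma, adjusted p = 0.9997, 0.986 and 0.872). In this fit, which has no term for replicate number, the intervals ran from -2.47 to 1.35, from -1.76 to 2.05 and from -2.15 to 1.67, so a difference of 2-fold in either direction was within each of them. Between same-numbered libraries the log2 differences were -0.35 and -0.76 in immature oocytes and 0.17 and 0.12 in mature oocytes. In activated eggs they were -0.30 and -0.18.

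A neighbour of CanA-14F encodes another calcineurin catalytic subunit. Pp2B-14D lies 667 bp away on the same strand of chromosome X, from 16554627 to 16560016, and is closely related in sequence, so that reads could be split between the genes and the values of each are uncertain to that extent. Its normalised read counts were 3254 and 3465.5 in wisp mature oocytes, against 2801 and 3236 in WT mature oocytes. In activated eggs they were 2278.5 and 3993 in wisp, against 2345 and 4747 in WT. The replicates thus lay apart in the same direction as those of CanA-14F. The log2 fold changes of Pp2B-14D between genotypes were 0.13, 0.16 and -0.15 in immature oocytes, mature oocytes and activated eggs (limma, adjusted p = 0.9997, 0.970 and 0.886). The ratio of CanA-14F to Pp2B-14D within a library was 0.758 and 0.877 in wisp mature oocytes and 0.782 and 0.865 in WT mature oocytes. In activated eggs it was 0.615 and 0.952 in wisp and 0.737 and 0.906 in WT. It was 0.5245 and 0.234 in wisp immature oocytes and 0.6 and 0.536 in WT immature oocytes, the lowest values of any stage in each genotype. The other calcineurin genes CanA1 and CanB are not among the records analysed here.

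CanB2 and CanA-14F varied together over the 12 libraries, with a Pearson's r of 0.93 between their log2 values, and Pp2B-14D had an r of 0.90 with CanB2 and of 0.94 with CanA-14F. So many records share this pattern that it does not set the genes apart. An r over 0.9 was found for 720 records with CanB2, led by Atf6 (0.993), stai (0.993) and MSBP (0.992), and for 764 records with CanA-14F, led by Src64B (0.992), fax (0.989) and l(2)gl (0.989). With sra, CanB2 had an r of 0.38 and CanA-14F an r of 0.55, and with Itp-r83A they had -0.54 and -0.24. These are descriptions over libraries that share their scaling, and the replicates of a group lay apart in the same way for many records.

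**Figure D3:**
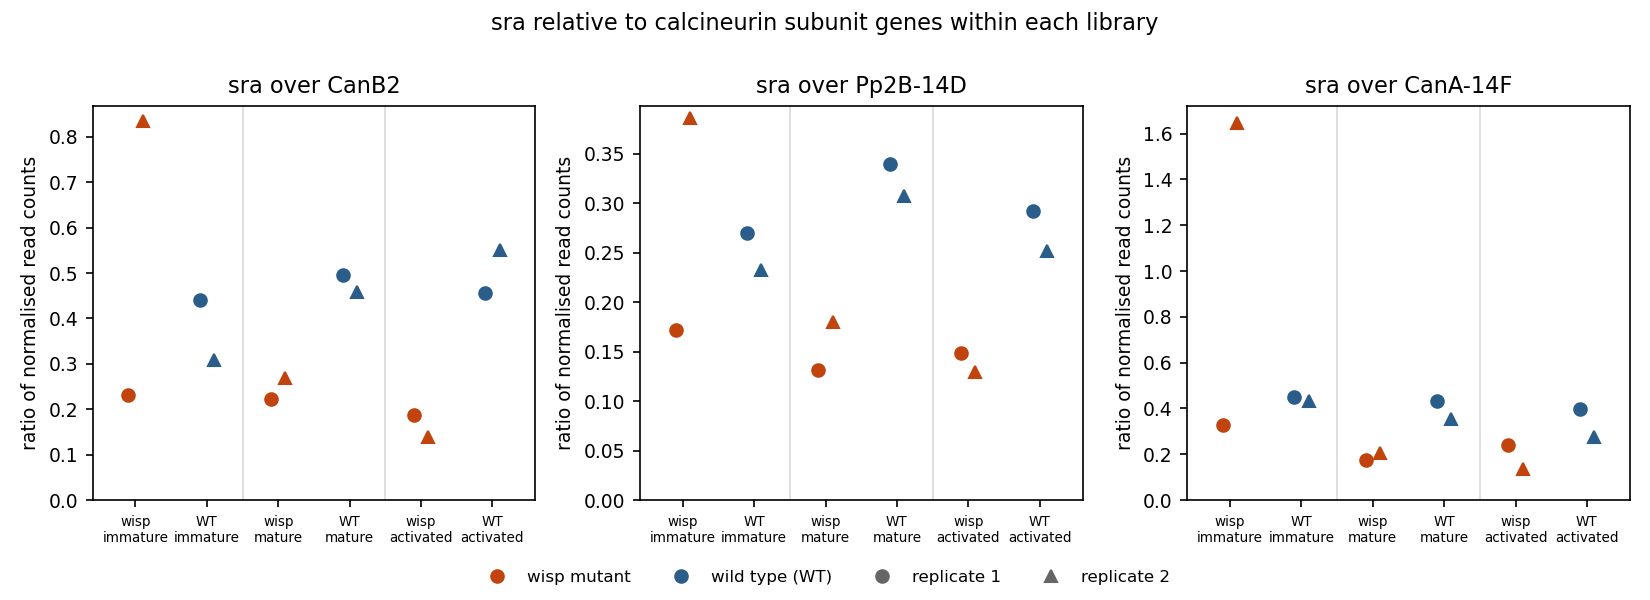
Ratio of the normalised read count of sra to that of CanB2, Pp2B-14D and CanA-14F (vertical axes, from 0) within each of the 12 libraries, by stage and genotype, with wisp left of WT, replicate 1 as circles and replicate 2 as triangles. In mature oocytes and activated eggs every wisp library lies below every WT library of its stage in each panel, and in immature oocytes the wisp libraries lie on both sides of WT.

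The values of sra can also be set beside those of the calcineurin subunit genes of the same library. The ratio of sra to CanB2 was 0.223 and 0.269 in wisp mature oocytes, against 0.495 and 0.458 in WT mature oocytes. In activated eggs it was 0.188 and 0.138 in wisp, against 0.457 and 0.551 in WT. In immature oocytes it was 0.231 and 0.834 in wisp, against 0.441 and 0.309 in WT, with the WT libraries between those of the mutant. The ratio of sra to Pp2B-14D was 0.131 and 0.18 in wisp mature oocytes, against 0.339 and 0.307 in WT mature oocytes, and 0.149 and 0.129 in wisp activated eggs, against 0.292 and 0.2515 in WT activated eggs. These ratios were chosen after the values of sra had been seen, and are another description of those values, given without a test.

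Compared per length, CanB2 had the highest mean of the 4 mRNAs in each of the 6 groups. This comparison takes the values as not already scaled by length and the longest transcript as the measured one, which the labels do not state. In mature oocytes its mean normalised read count per kb of the longest transcript was 1028 ± 140.2 in wisp and 992 ± 86.6 in WT (SD, n = 2 each). That of sra was 254 ± 67.2 in wisp and 469.5 ± 15.2 in WT, that of CanA-14F 346 ± 50.6 in wisp and 313 ± 54.2 in WT, and that of Itp-r83A 154.5 ± 19.5 in wisp and 169 ± 4.27 in WT. In mature oocytes sra thus stood below CanA-14F in wisp and above it in WT. In activated eggs the levels per kb were 206 ± 60.1 in wisp and 453.5 ± 174 in WT for sra, and 66.1 ± 16.8 in wisp and 166 ± 12.4 in WT for Itp-r83A.

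The comparison of mature with immature oocytes asks which mRNAs differ between stages 9 to 10 and stage 14 of oogenesis. Of the 4 genes 0 were called in wisp and 0 in WT by limma, where 13.1% and 0% of all records were called, and at an unadjusted p under 0.05 the counts were 1 and 0, against 30.1% and 9.63% of all records, so 1 of 4 in wisp is near the background. In wisp 11.4% of all records were called lower and 1.68% higher. The 1 gene with an unadjusted p under 0.05 was CanA-14F in wisp, with 2468 and 3038 in mature oocytes, against 1439.8 and 331 in immature oocytes, a log2 fold change of 1.99 with an interval of 0.08 to 3.89 (limma, adjusted p = 0.153). In WT its log2 fold change was 1.28 (limma, adjusted p = 0.607). For sra it was 0.03 in wisp (interval -1.18 to 1.23) and 1.11 in WT (interval -0.09 to 2.32), and the difference between genotypes in that change was -1.08 with an interval of -2.79 to 0.62 (limma, adjusted p = 0.787). For CanB2 it was 0.87 in wisp and 0.75 in WT, and for Itp-r83A 0.35 in wisp and -0.15 in WT. Of the 4 genes 0 were called in the genotype difference in maturation, against 1.03% of all records, and 0 had an unadjusted p under 0.05.

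At egg activation the log2 fold changes of activated eggs over mature oocytes were -0.30 in wisp and -0.10 in WT for sra. They were 0.30 in wisp and -0.18 in WT for CanB2, and -0.25 in wisp and 0.14 in WT for CanA-14F. For these 3 genes the stages overlapped in both genotypes. The comparisons at activation and between genotypes share libraries, so their values are not independent of each other.

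**Figure D4:**
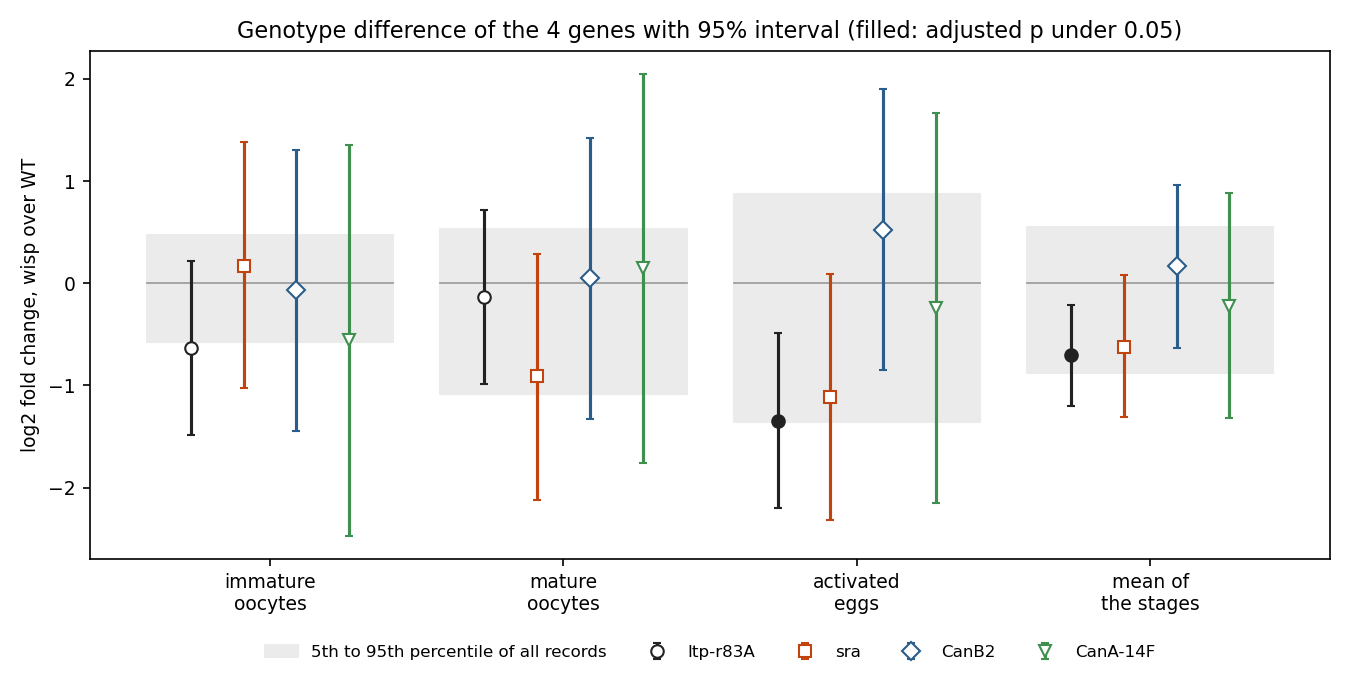
Log2 fold change of wisp over WT (vertical axis) of the 4 genes at each stage and as the mean over the stages, with bars for the 95% interval from limma, filled symbols for an adjusted p under 0.05 and the grey band for the 5th to 95th percentile of all 5421 records. Itp-r83A is filled in activated eggs (-1.35, at the lower edge of a band that runs from -1.36 to 0.87) and in the mean (-0.70), and the other intervals include 0.

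Over the 3 stages together, the mean log2 difference between wisp and WT was -0.70 for Itp-r83A with an interval of -1.20 to -0.21 (limma, adjusted p = 0.0419), and it was the 1 of 4 genes called, where 18.4% of all records were called lower, 9.37% higher and 27.8% in either direction. For sra the mean was -0.62 with an interval of -1.31 to 0.08 (limma, adjusted p = 0.172), for CanB2 0.17 (limma, adjusted p = 0.792) and for CanA-14F -0.22 (limma, adjusted p = 0.803). A 2-sided exact permutation test of the same mean, which permutes genotypes within stages and does not pool the spread over genes, gave p = 0.0463 for Itp-r83A and 0.13 for sra over 216 arrangements. Adjusted over the 4 genes these were 0.185 and 0.259 by exact permutation, and the smallest p the arrangements allow is 0.00926. For CanB2 and CanA-14F the exact permutation p was 0.694 and 0.593. In immature oocytes alone 0 of 4 genes were called by limma, against 0.111% of all records, and 0 had an unadjusted p under 0.05.

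The call of Itp-r83A in activated eggs was close to the threshold in the main fit. It was kept with only the activated libraries (limma, adjusted p = 0.0356), where 8.78% of all records were called. Without the immature libraries its adjusted p was 0.00471 (limma), where 33% were called. With a replicate block within each stage it was 0.000256, and 0.00169 with length correction too (limma), where 53.7% and 45.2% were called. A block over all stages ended the call (limma, adjusted p = 0.0538). Leaving out each of the 4 activated libraries in turn gave log2 fold changes of -1.61 to -1.09 and adjusted p-values of 0.0503 to 0.171 (limma), so the call ended without any of them. With median-of-ratios scaling it was -1.14 (limma, adjusted p = 0.0632) and with quantile normalisation -1.07 (limma, adjusted p = 0.12). Both scalings moved the median of all records in activated eggs to 0.04, against -0.16 as deposited. Relative to that median Itp-r83A was at -1.19 as deposited and with median-of-ratios scaling, and at -1.11 with quantile normalisation. The calls over all records split into 396 higher and 959 lower as deposited, 566 higher and 592 lower with median-of-ratios scaling, and 203 higher and 294 lower with quantile normalisation. The call over the mean of the stages ended with both scalings too, at -0.62 and -0.61 (limma, adjusted p = 0.0679 and 0.109), and was kept without 3 of the 12 libraries, wisp immature replicate 1, wisp immature replicate 2 and wisp activated replicate 1. Without each of the others its adjusted p was up to 0.11 (limma). For sra the mean passed the threshold without WT immature replicate 2, at -0.91 (limma, adjusted p = 0.0135). The mean-of-stages calls over all records split into 508 higher and 998 lower as deposited, 601 higher and 744 lower with median-of-ratios scaling, and 435 higher and 471 lower with quantile normalisation.

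Around these genes, 40 of 55 other genes listed for calcineurin, calcium stores and channels, phosphoinositide and IP3 metabolism, and calcium and calmodulin effectors were present. In activated eggs 5 of the 40 were lower in wisp and 1 was higher by limma, against 17.7% lower and 7.3% higher of all records, and the median log2 difference was -0.28, against -0.16 over all records. In mature and in immature oocytes 0 of the 40 were called by limma, against 10.1% and 0.111% of all records. At an unadjusted p under 0.05 they held 4 and 1, against 22% and 6.88% of all records. Their medians there were 0.14 and -0.07, against -0.03 and 0.00 over all records. Of the 6 genes present of 8 in the calcineurin list, which are sra, CanB2, CanA-14F, Pp2B-14D, calmodulin (Cam) and the sra kinase gene sgg, 0 were called in any of the 10 comparisons by limma. Of all records 27.8% were called in the mean of the stages, 25% in activated eggs and 10.1% in mature oocytes. Between mature and immature wisp oocytes the share was 13.1%, and in each of the other comparisons at most 1.03%. At an unadjusted p under 0.05 the count was 1, the difference of CanA-14F between mature and immature wisp oocytes, and 0 in each of the other comparisons. Of all records 30.1% had such a p between mature and immature wisp oocytes, and 3.04% to 39.5% in the other comparisons.

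In the list of calcium stores and channels, 3 of 14 were lower in wisp activated eggs and 0 higher, with a median of -0.28. Over all records 17.7% were lower and 7.3% higher, with a median of -0.16. Besides Itp-r83A, the lower genes of the list were Ca-P60A, the SERCA pump that refills the endoplasmic reticulum, and Calx, the sodium and calcium exchanger. Ca-P60A had normalised read counts of 3545 and 2551 in wisp activated eggs, against 4607 and 6819 in WT activated eggs (log2 fold change -0.90, limma, adjusted p = 0.0471). Calx had 2373 and 1811 in wisp, against 3464 and 4256 in WT (-0.89, limma, adjusted p = 0.0374). Each had wisp libraries below both WT libraries, as did 38.9% of all records, and their longest transcripts have 6306 and 7361 nt. With the length trend removed they had -0.39 and -0.32 and were not called (limma, adjusted p = 0.488 and 0.64). In wisp, 11.4% of all records were called lower in mature than in immature oocytes. Crc, the calcium-binding chaperone calreticulin, was the 1 member of the list called there, with 5805 and 6030.0 in mature oocytes, against 11785 and 9991 in immature oocytes (-0.87, limma, adjusted p = 0.0226). Without any one of these 4 libraries Crc was not called (limma, adjusted p of 0.0541 to 0.148), nor with quantile normalisation or only those libraries (limma, adjusted p = 0.131 and 0.0658).

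Among calcium and calmodulin effectors 2 of 12 were lower in wisp activated eggs and 0 higher, with a median of 0.33. Over all records 17.7% were lower and 7.3% higher, with a median of -0.16. CalpC, a member of the calpain family, had 234 and 141 in wisp, against 603 and 654 in WT (log2 fold change -1.79, limma, adjusted p = 0.0117). Pkc98E, a protein kinase C, had 161 and 201 in wisp, against 467 and 743 in WT (-1.70, limma, adjusted p = 0.0114). The wisp values are near the lowest level a listed gene can have. Of the genes for phosphoinositide and IP3 metabolism 1 of 13 was lower, the lipid kinase gene Pi4KIIalpha, with 723.5 and 622.5 in wisp, against 879.9 and 1226 in WT (-0.63, limma, adjusted p = 0.0424). Another, Pis, the phosphatidylinositol synthase, was higher, with 848.5 and 818 in wisp, against 588 and 553 in WT (0.55, limma, adjusted p = 0.0252). The median of the phosphoinositide list was -0.62, against -0.16 over all records, and 1 of 13 lower stands beside 17.7% of all records. With the length trend removed CalpC and Pkc98E were still called, and Pi4KIIalpha (-0.44, limma, adjusted p = 0.219) and Pis (0.35, limma, adjusted p = 0.221) were not. Of these 6 calls, those of Calx and Pis ended without any one of the 4 activated libraries (limma, adjusted p up to 0.214 and 0.157). Those of Ca-P60A and Pi4KIIalpha were kept only without WT activated replicate 1, that of CalpC ended without replicate 2 of either genotype (limma, adjusted p up to 0.0866), and that of Pkc98E ended without WT activated replicate 2 (limma, adjusted p = 0.0945). With median-of-ratios scaling the calls of Ca-P60A (-0.69), Calx (-0.68) and Pi4KIIalpha (-0.42) ended (limma, adjusted p = 0.0889, 0.0854 and 0.0908). With quantile normalisation those of Ca-P60A, Calx, Pi4KIIalpha, CalpC and Pis ended (limma, adjusted p = 0.112, 0.178, 0.221, 0.0664 and 0.0528). With only the activated libraries those of Ca-P60A, Calx, Pi4KIIalpha and Pis ended (limma, adjusted p = 0.202, 0.18, 0.209 and 0.207).

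Over the mean of the stages 2 of the 40 were lower, CalpC (-1.16) and Pkc98E (-0.91), and 2 higher, AnxB9, an annexin (0.46), and Pis (0.35), against 18.4% lower and 9.37% higher of all records. With the length trend removed AnxB9 (0.38) and Pis (0.29) were not called (limma, adjusted p = 0.0535 and 0.0632).

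In the list of egg activation partners, 10 of 10 genes were present. In mature oocytes and in activated eggs 2 of the 10 were lower and 0 higher, against 9.37% and 17.7% of all records lower. They were wisp, which is the mutated gene itself, and cort, whose product activates the anaphase-promoting complex in female meiosis. The cort gene had 453 and 411 in wisp mature oocytes, against 1201 and 1158 in WT mature oocytes (log2 fold change -1.45, limma, adjusted p = 0.00274), and 527 and 440.0 in wisp activated eggs, against 925 and 861 in WT activated eggs (-0.89, limma, adjusted p = 0.0139). In wisp it was also lower in mature than in immature oocytes, at 453 and 411, against 777 and 901.5 (-0.95, limma, adjusted p = 0.0139). The call of cort in mature oocytes ended with quantile normalisation (-1.26, limma, adjusted p = 0.0712), and that in activated eggs ended with median-of-ratios scaling (-0.68, limma, adjusted p = 0.0614), with quantile normalisation (-0.66, limma, adjusted p = 0.143) and with only the activated libraries (limma, adjusted p = 0.0751). The call of cort between stages ended with quantile normalisation, only those libraries or the length correction (limma, adjusted p = 0.0742, 0.0655 and 0.0537). With each library left out in turn, the call in mature oocytes was kept 4 of 4 times, the call in activated eggs without wisp replicate 1 alone, and the call between stages without wisp immature replicate 1 alone.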

How the data were processed

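The values were deposited by the authors as normalised read counts, treated here as a signal, for 5422 records, of which 1 identical duplicate was removed. The submitters' processing notes name STAR 2.4.2a, RSEM 1.2.25, HTSeq without a version, and build dm6, with no roles. Per the labels' protocols, equal ERCC spike-in RNA went into equal total RNA before Ribo-Zero depletion and TruSeq v2 preparation. The table has 0 ERCC rows, and 0 value columns belonged to no sample. The best step tried made 14.3% of low values whole within 0.05, where chance gives 10%, so reads were not recovered and no counting interval is given.

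Of the records, 5407 matched RefSeq genes (Release 6), and 5407 had gene models of Ensembl release 115, used for lengths and dm6 coordinates. The test was 1 limma fit (limma 3.58.1, R 4.3.3, trended) of log2(value + 1) with 6 group means over 12 libraries and no block, with 6 residual and 2.43 prior degrees of freedom. Benjamini-Hochberg adjustment ran over 5421 records, and a gene was called at an adjusted p under 0.05. The code was tested on simulated data. Named genes are the 4 members, called genes of the lists (at most 6 a list), the 3 genes most like each member, and the calcineurin list. Bin1 was added once its overlap was seen. Members and lists were chosen with earlier results of these data known. Alternatives were other pseudocounts (0.5 and 5), a mean of at least 500, 2 other scalings, fewer libraries, a replicate block, a length correction (loess per library) and leaving out each library.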

Additional observations from a re-analysis of the deposited data

How the results depend on the processing

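Other pseudocounts and a mean of at least 500 left 40 of 40 results on the 4 genes on the same side of the threshold and in the same direction. Members called in activated eggs (1 as reported) were 0 with median-of-ratios scaling, quantile normalisation, length correction or a block over all stages, 2 without the immature libraries, and 0 to 0 with a library left out. Members called in the mean of the stages (1) were 0 with the same 4 alternatives and 0 to 1 with a library left out. In mature oocytes (0) the count was 1 with only the mature libraries, where 41.95% of all records were called. In activated eggs without the immature libraries, 33% of all records were called.

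Replicate numbers are shared by the groups, but the labels do not say that they mark a batch, so the numbers were not taken as pairs. Deviations of same-numbered libraries correlated at 0.849, 0.483 and 0.771 between genotypes within immature, mature and activated stages. Those of immature groups with mature or activated groups correlated at -0.938 to -0.31. These negative values concern different stages and do not speak against pairs within a stage. With a replicate block within each stage, with or without length correction, the members called were 0 in immature oocytes, 1 in mature oocytes (sra), 3 in activated eggs (Itp-r83A, sra and CanB2), 2 between mature and immature oocytes in wisp (CanB2 and CanA-14F) and 3 in WT (sra, CanB2 and CanA-14F), 1 between activated eggs and mature oocytes in wisp (Itp-r83A) and 2 in the mean of the stages (Itp-r83A and sra). In the same order, that block called 4.9%, 24%, 53.7%, 53.3%, 28.3%, 2.34% and 52.9% of all records without length correction. With length correction the shares were 5.66%, 33.25%, 45.2%, 54%, 32.6%, 2.02% and 50.8%.

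The number of all records called moved widely. In mature oocytes it was 545 as reported, 213 at a mean of at least 500, 50 with quantile normalisation, 331 with length correction, 2274 with only the mature libraries, 1302 with the block within stages and 109 to 195 with a library left out. In activated eggs it was 1355, against 497 with quantile normalisation, 476 with only the activated libraries, 681 with length correction, 2909 with the block within stages and 203 to 967 with a library left out. In immature oocytes it was 6, against 14 with median-of-ratios scaling, 2 with quantile normalisation or the block over all stages, 0 with only those libraries, 0 to 5 with a library left out and 267 with the block within stages. Between mature and immature oocytes it was 708 in wisp, against 303 at a mean of at least 500, 273 with quantile normalisation, 209 with only those libraries, 418 with length correction, 127 to 450 with a library left out and 2891 with the block, and 0 in WT, against 1532 with the block. In the mean of the stages it was 1506, against 906 with quantile normalisation, 990 with length correction, 855 to 1600 with a library left out and 2868 with the block. For the genotype difference in maturation it was 56, against 12 at a mean of at least 500, 2 with median-of-ratios scaling, 1 with quantile normalisation, 9 with length correction, 0 to 76 with a library left out and 531 with the block.

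Signs of differences that were not called turned in these cases, and the cause was not tested. With quantile normalisation CanB2 was at 0.03 in immature oocytes, and CanA-14F at -0.02 between activated eggs and mature oocytes in WT. With length correction, with or without the block, CanA-14F was at 0.36 in activated eggs, 0.14 and -0.09 at activation in wisp and WT, 0.23 for the genotype difference in activation and 0.11 in the mean of the stages (also in the permutation test), and Itp-r83A at -0.26 between mature and immature wisp oocytes and -0.03 for the genotype difference in maturation. With a library left out, log2 fold changes in immature oocytes ran from -1.28 to 0.01 for Itp-r83A, -0.71 to 1.05 for sra, -0.89 to 0.75 for CanB2 and -1.62 to 0.50 for CanA-14F. In mature oocytes they ran from -0.09 to 0.19 for CanB2 and -0.03 to 0.32 for CanA-14F, and in activated eggs from -0.0026 to 1.05 for CanB2 and -0.96 to 0.48 for CanA-14F. Between mature and immature wisp oocytes they ran from -0.29 to 1.00 for Itp-r83A and -0.25 to 0.30 for sra. At activation in wisp they ran from -0.23 to 0.83 for CanB2 and -0.97 to 0.47 for CanA-14F, and in WT from -0.10 to 0.05 for Itp-r83A, -0.51 to 0.30 for sra, -0.45 to 0.09 for CanB2 and -0.52 to 0.80 for CanA-14F. For the genotype difference in maturation they ran from -0.15 to 1.14 for Itp-r83A, -0.70 to 0.94 for CanB2 and -0.35 to 1.76 for CanA-14F, and for that in activation from -0.60 to 0.20 for sra, -0.05 to 1.01 for CanB2 and -1.10 to 0.33 for CanA-14F. In the mean of the stages they ran from -0.11 to 0.44 for CanB2 and -0.57 to 0.13 for CanA-14F. A group left with 1 library was assumed to vary like the others. The depth behind the values is unknown, and genes below 100 in any library are not analysed here.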
